A study of Sus scrofa with 30 samples.

Results

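The miR-92, miR-25 and miR-363 seed family was followed in the plasma of 3 Göttingen minipigs before and after total body irradiation (TBI). Its members were taken by number alone, as every row of the deposited miRNA count table named for miR-25, miR-32, miR-92, miR-363 or miR-367. This gave 5 of the 411 rows, ssc-miR-92a, ssc-miR-92b-3p, ssc-miR-92b-5p, ssc-miR-363 and ssc-miR-32. The count table held no row named for miR-25 or miR-367. The rule used no measured value.

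Each minipig gave 1 library of plasma small RNA at each of 10 time points, so the same animals were their own controls and no unirradiated animals were compared. The minipigs were young males, they all received a single 2.2 Gy TBI from a cobalt source, and they all carried the dextrose injections of the control arm of a drug study and antibiotic support when neutrophils were low. Blood drawn 7 days (C7) and 1 day (C1) before TBI formed the pre-TBI group. After TBI the study grouped 0d (6 h), 1d, 3d and 7d as Early, 10d and 14d as Mid, 17d as Late and 20d as LR, phases that it read from a PCA of the same libraries. The 6 libraries of minipig 3 from 3d to 20d held 0 to 17 counts each, with 1 member count among them, and were left out. The 24 others held 24341 to 550316 counts (median 240612), which gave a pre-TBI group of 6 libraries, an Early group of 10, a Mid group of 4 and 2 libraries each for Late and LR. From 3d on every value therefore rested on minipigs 1 and 2, with 1 library each at Late and LR. The smallest totals were those of minipig 1 at C7 and at 17d (29159 counts), and the values of both miR-92b arms and of ssc-miR-363 at Late are also given without them.

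MicroRNAs are short RNAs that guide the silencing machinery to messenger RNAs, chiefly through the seed near their 5′ end. The miR-92a, miR-92b, miR-25, miR-363, miR-367 and miR-32 guide strands share their seed and can therefore recognise the same target sites, while each is made from a hairpin of its own. The miR-92a of the miR-17-92 cluster is well known from blood cell development and is abundant in blood cells and plasma.

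The seed of miR-92a-3p, bases 2 to 8 of the mature RNA, is shown because it is what the family has in common and because one of the 5 rows lacks it. It is printed 5′ to 3′ with every base in capitals, as the study's supplementary list gives it.
miR-92a-3p seed: AUUGCAC
ssc-miR-92b-5p comes from the other arm of the miR-92b hairpin, so it belongs to the family by its number and its precursor and not by this seed. The names of ssc-miR-92a, ssc-miR-363 and ssc-miR-32 give no arm, and they are taken here as the guide strands.

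In the RefSeq pig annotation (assembly Sscrofa11.1) MIR92A-1 was the last of 6 miRNA genes in the order MIR17, MIR18A, MIR19A, MIR20A, MIR19B-1 and MIR92A-1. MIR92A-2 stood beside MIR363-1 in a second group of 6 with MIR19B-2, MIR20B-1, MIR18B and MIR106A. MIR92B had no other miRNA gene within 10000 bases, and MIR32 lay alone within TMEM245. The counts were made on another assembly (ssc5), so no coordinates are given. Since both MIR92A genes can give the same mature RNA, the single ssc-miR-92a row cannot be divided between the clusters.

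Both arms of miR-92b and miR-92a were among the most abundant rows in minipig plasma. ssc-miR-92b-3p held 117631 counts over the 24 libraries, rank 6 of the 411 rows, with 0.264 to 2.63% of a library's counts (median 1.87%). ssc-miR-92b-5p ranked 11 with 66784 counts and a median share of 1.05% (0.103 to 1.74%). ssc-miR-92a ranked 25 with 46360 counts, and its share was 0.640% at the median and 0.429 to 1.58% over the libraries. The remaining pair of seed-sharing members was far scarcer. ssc-miR-363 ranked 235 with 10 to 317 counts per library, and ssc-miR-32 ranked 407 with 0 to 34 counts, being at 0 in minipig 1 at C7. The 5 rows together took 0.868 to 5.004% of the counts (median 3.73%). Ligation favours some small RNAs over others, so these shares order the rows by reads and not by molecules.

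**Figure D1:**
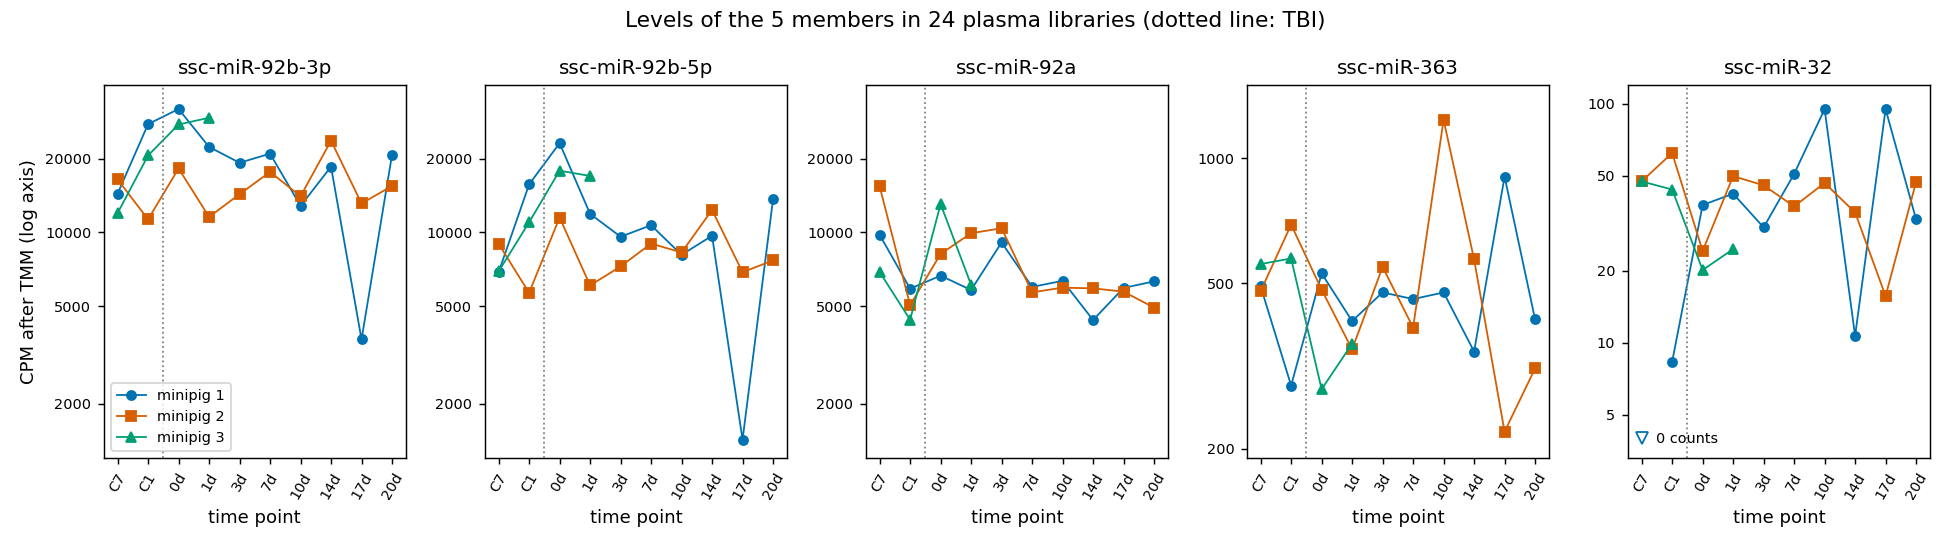
Levels of the 5 members in each of the 24 libraries, as CPM (the share of a library's counts in parts of 1e6) after TMM scaling on a log axis (the same range for the 3 panels of miR-92), against the time point, with 1 colour and marker for each minipig. Both arms of miR-92b run in parallel and are lowest in minipig 1 at 17d, miR-92a is highest in minipig 2 at C7, and the open triangle marks the library with 0 counts of miR-32.

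Levels were compared as CPM, counts scaled to a common library total and then with TMM, and each phase was set against pre-TBI with edgeR's quasi-likelihood test over all 411 rows with Benjamini-Hochberg adjustment. None of the 5 members was called in any phase, at an adjusted or at an unadjusted p under 0.05. Over all rows, the share called without adjustment was 18.7% at Early and 5.35% at Mid, then 22.6% at Late and 5.6% at LR. With adjustment it was 4.38% at Late and 0% in each of the other phases. With so few members, 0 of 5 is close to these shares. DESeq2 called 2 members at Late without adjustment, the arms of miR-92b, where it called 101 of the 411 rows. With adjustment it called 0 members and 27 of all rows. The median log2 fold change over all rows, in the order of the phases, was 0.02, 0.05, 0.08 and -0.01, against 0.03, 0.02, -0.73 and -0.07 over the members (4 at Late, where ssc-miR-32 held 3 counts and is given no fold change, and 5 in the other phases). The counts per phase are from plasma, in which fewer cells of a type and less RNA released per cell cannot be told apart.

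**Figure D2:**
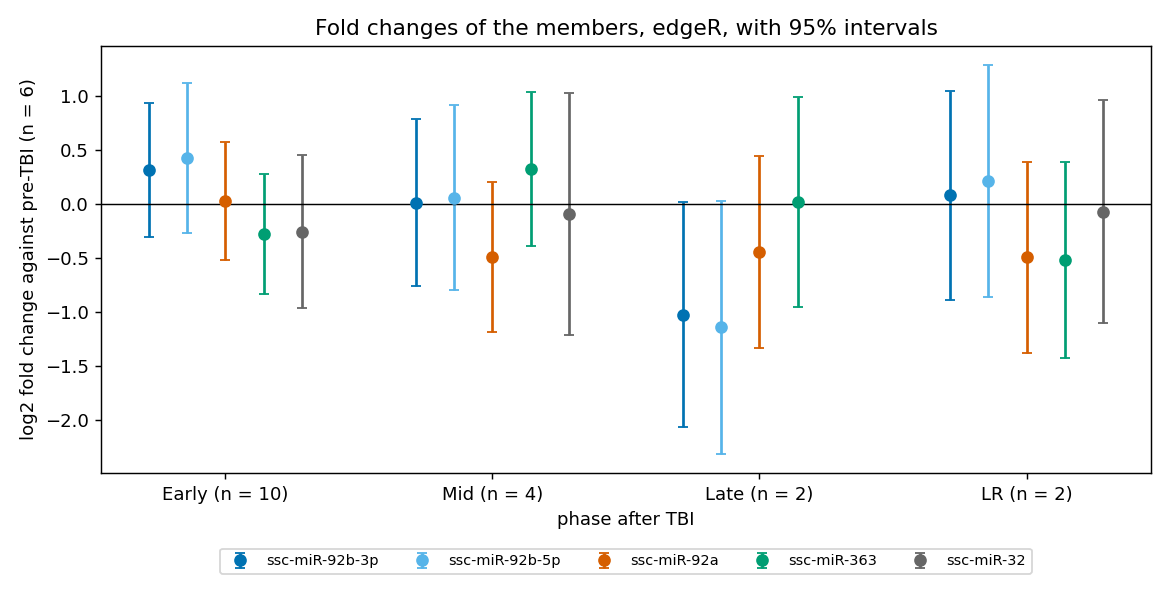
Log2 fold changes of the members in each phase after TBI against the 6 pre-TBI libraries, from edgeR's fit, with bars for the 95% interval. Every interval includes 0, those of both miR-92b arms at Late only just (upper ends 0.02 and 0.04), and miR-32 has no point at Late, where it held 3 counts in all.

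The miR-92b hairpin gave the largest differences of the family, and these lay at Late. ssc-miR-92b-3p, the seed-bearing arm, stood at 11306 to 27673 CPM before TBI (median 15425, n = 6) and at 11565 to 31902 at Early (median 20105, n = 10). At Mid its 4 libraries held 12832, 14047, 18554 and 23684 CPM, and at LR its libraries held 20736 in minipig 1 and 15474 in minipig 2. Each of these phases overlapped the pre-TBI range. At Late minipig 1 held 3657 CPM, below every pre-TBI library, and minipig 2 held 13130, within their range. The log2 fold change at Late was -1.02 (SE 0.50, 95% interval -2.06 to 0.02, adjusted p = 0.222). It was 0.32 at Early (SE 0.30), 0.02 at Mid (SE 0.37) and 0.08 at LR (SE 0.47), and the values at Mid and LR turned below 0 under some alternatives. Without the libraries of minipig 1 at C7 and 17d the value at Early was 0.18, and without minipig 3 it was 0.14.

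The low value at Late was that of 1 library. Against the mean of its own pre-TBI libraries, log2 CPM of ssc-miR-92b-3p at 17d was different by -2.45 in minipig 1 and by -0.05 in minipig 2. Minipig 1 at 17d held 77 counts of ssc-miR-92b-3p among 29159, and its level was back at 20736 CPM at 20d. Without minipig 2 the log2 fold change at Late was -2.63, and without minipig 1 it was -0.23, each from 1 Late library. Without the libraries of minipig 1 at C7 and 17d it was -0.40. Across the 24 libraries ssc-miR-92b-3p and ssc-miR-92b-5p had correlations with the log2 library total of 0.460 and 0.471, so depth moved with both arms. These coefficients include minipig 1 at 17d, which held the lowest level of both arms at a total of 29159 counts. They are not given without that library, and the part of depth in the result was not tested.

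ssc-miR-92b-5p, the other strand of the same hairpin, followed the same course at a lower level. It held 5670 to 15703 CPM before TBI (median 7959), 6078 to 23140 at Early (median 11102) and 8103 to 12351 at Mid (median 8986). At LR it held 13659 CPM in minipig 1 and 7688 in minipig 2. At Late it was at 1425 CPM in minipig 1, from 30 counts, and at 6879 in minipig 2. Its log2 fold change at Late was -1.14 (SE 0.57, 95% interval -2.31 to 0.04, adjusted p = 0.227), made up of -2.86 in minipig 1 and -0.05 in minipig 2. The values in the other phases were 0.43 (SE 0.34) at Early, 0.06 (SE 0.42) at Mid and 0.21 (SE 0.52) at LR, with the last pair below 0 under some alternatives. Without minipig 1 at C7 and 17d the value was 0.25 at Early and -0.46 at Late, and without minipig 3 it was 0.22 at Early. Without minipig 2 the value at Late was -3.11 and without minipig 1 it was -0.27, each from 1 Late library.

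In 1 of 3 minipigs every Early library held more of both miR-92b arms than either pre-TBI library of the same animal. In minipig 3 log2 CPM lay above its pre-TBI mean by 0.86 for ssc-miR-92b-3p and by 1.00 for ssc-miR-92b-5p, from its libraries at 0d and 1d. In minipigs 1 and 2 each Early library lay between the pre-TBI libraries of its own animal or above both. The mean differences there were 0.21 and 0.16 for ssc-miR-92b-3p. Before TBI the animals had also moved apart, since from C7 to C1 log2 CPM of ssc-miR-92b-3p differed by 0.94 in minipig 1, -0.54 in minipig 2 and 0.78 in minipig 3. The spread of the pre-TBI libraries (SD of log2 CPM) was 0.49 for ssc-miR-92b-3p and 0.54 for ssc-miR-92b-5p, near the median of 0.55 over all rows.

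The ratio of the miR-92b arms was steady while their level was not. ssc-miR-92b-5p had 0.390 to 0.725 counts for each count of ssc-miR-92b-3p over the 24 libraries (median 0.529), a range of 1.86-fold, and the SD of its log2 was 0.19. Over the same libraries ssc-miR-92b-3p itself ranged from 3657 to 31902 CPM. Both the highest and the lowest ratio came from minipig 1. The lowest, at 17d, rested on 30 and 77 counts and had a 95% Wilson interval of 0.256 to 0.592, which includes the median. PCR copies of a molecule were counted as reads of their own, so such an interval holds the counting error alone.

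At 0d, 6 h after TBI, the ratio of the arms was the highest of each animal's own series, a pattern chosen after its values were seen and given with no test. It was 0.725 (95% Wilson interval 0.695 to 0.757) in minipig 1, the highest of 10 libraries. In minipig 2 it was 0.631 (0.609 to 0.653), also the highest of 10. In minipig 3 it was 0.648 (0.630 to 0.666), the highest of 4. The next values in each animal were 0.659 (0.635 to 0.684) at 20d in minipig 1, 0.590 (0.517 to 0.672) at 10d in minipig 2 and 0.579 (0.562 to 0.596) at 1d in minipig 3. In minipig 2 the interval at 10d overlapped that at 0d, and in minipigs 1 and 3 these intervals did not overlap.

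**Figure D3:**
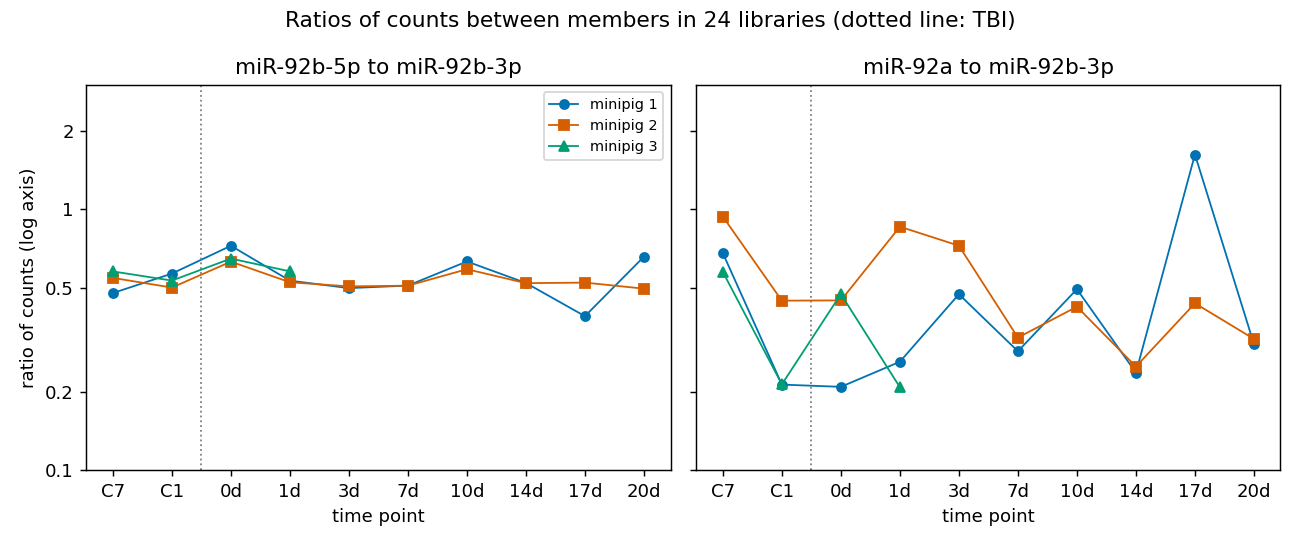
Ratios of counts between members in each of the 24 libraries, on a log axis, against the time point, with 1 colour and marker for each minipig. The ratio of the miR-92b arms stays between 0.390 and 0.725, while the ratio of miR-92a to miR-92b-3p spans 0.208 to 1.62.

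ssc-miR-92a, the member made by the miR-17-92 cluster and its relative with miR-363, was not called in any phase. It held 4401 to 15431 CPM before TBI (median 6395) and 5696 to 13060 at Early (median 7416). At Mid its libraries held 4389, 5912, 5950 and 6345 CPM, at Late 5936 and 5733, and at LR 6314 and 4932. All of these phases overlapped the pre-TBI range, and 1 Mid library lay below it. The log2 fold change was 0.03 (SE 0.26) at Early and -0.48 (SE 0.34) at Mid. It was -0.44 (SE 0.43) at Late and -0.49 (SE 0.43) at LR, and the adjusted p ran from 0.546 to 0.957.

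The baseline of ssc-miR-92a differed between the pre-TBI time points more than most phases differed from it. From C7 to C1 its log2 CPM differed by -0.73 in minipig 1, -1.61 in minipig 2 and -0.65 in minipig 3, so it was lower at C1 in 3 of 3 animals, before any irradiation. The level went from 9778 to 5894 CPM in minipig 1, from 15431 to 5051 in minipig 2 and from 6896 to 4401 in minipig 3. The choice of baseline therefore set the sign of its later values. With C7 alone as the baseline the log2 fold changes from Early to LR were -0.44, -0.89, -1.00 and -0.99. With C1 alone they were 0.66, 0.14, 0.19 and 0.14. By edgeR's quasi-likelihood test none of these 8 values passed the adjusted threshold. The 4 that passed it unadjusted were Early against C1 (adjusted p = 0.395) and Mid, Late and LR against C7 (adjusted p = 0.875, 0.441 and 0.472).

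ssc-miR-363, which shares the seed and lies beside MIR92A-2, showed opposite values in the animals at Late. Its pre-TBI libraries held 284 to 692 CPM (median 524), those of Early 278 to 547 (median 432) and those of LR 410 and 312. At Mid its libraries held 343, 475, 571 and 1237 CPM, the last from minipig 2 at 10d with 53 counts. At Late it was at 902 CPM in minipig 1 (19 counts), above every pre-TBI library, and at 220 CPM in minipig 2 (14 counts), below every one. The log2 fold change was -0.27 (SE 0.27) at Early and 0.33 (SE 0.35) at Mid, and 0.03 (SE 0.47) at Late and -0.52 (SE 0.44) at LR. The adjusted p was at least 0.543. The sign at Late turned under most alternatives, with -1.25 when minipig 1 at C7 and 17d was left out, and that at Mid turned below 0 without minipig 2 and without the libraries under 50000 counts.

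ssc-miR-32 was measured with few counts, and edgeR called none of its differences. Its pre-TBI libraries held 0, 1, 11, 18, 21 and 27 counts, the Early libraries 6 to 22, the Mid libraries 1 to 4, the Late libraries 1 and 2 and the LR libraries 11 and 34. Its level was 0 to 62.3 CPM before TBI (median 45.6) and 20.2 to 50.9 at Early (median 37.5). It was 10.7 to 95.1 CPM at Mid (median 40.9) and 32.9 and 47.1 at LR. The log2 fold changes were -0.25 (SE 0.34) at Early, -0.08 (SE 0.54) at Mid and -0.07 (SE 0.50) at LR, with adjusted p of at least 0.673 and a sign at Mid and LR that did not hold under every alternative. With every library thinned to 24341 counts the fitted values were -1.26, -1.95 and -1.25, none of them called. Without minipig 1 the value at Early was -0.65, and without minipig 3 it was -0.02. The animals had opposite signs. Mean log2 CPM at Early differed from the animal's own pre-TBI libraries by 2.10 in minipig 1, -0.44 in minipig 2 and -0.83 in minipig 3. Those pre-TBI libraries held 0 and 1 counts in minipig 1. Summed over the libraries of a group, 108 counts at Early stood against 78 before TBI, a ratio of shares of 0.649 with a 95% counting interval of 0.481 to 0.880, which leaves out the spread between libraries. The ratio was 0.747 (0.358 to 1.41) at Mid, from 11 counts, 0.618 (0.1247 to 1.87) at Late, from 3 counts, and 0.901 (0.610 to 1.32) at LR.

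Neither the single time points nor the animals separated the members. With each time point after TBI as a group of its own, the level over the time points differed in 0 of 5 members, with unadjusted p from 0.176 for ssc-miR-92b-5p to 0.714 for ssc-miR-32. Over all rows 25.8% were called in this test without adjustment and 6.81% with it. Between the minipigs, with the phases kept in the fit, 0 of 5 members differed, against 29.4% of all rows without adjustment and 13.4% with it. The unadjusted p between the minipigs ran from 0.426 for ssc-miR-92b-5p to 0.817 for ssc-miR-363. Mean log2 CPM of ssc-miR-92b-3p was 14.1 in minipig 1, 13.9 in minipig 2 and 14.4 in minipig 3, with SDs of 0.87, 0.32 and 0.59. That of ssc-miR-92a was 12.7, 12.8 and 12.8, with SDs of 0.33, 0.54 and 0.66.

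The members differed in how alike their levels ran over the libraries. Across the 24 libraries Pearson's r of log2 CPM was 0.98 between the arms of miR-92b, and this pair stood first among the 410 other rows for each arm. Between ssc-miR-92a and ssc-miR-92b-3p, which have the seed in common, r was 0.03, rank 190 of 410. It was -0.08 between ssc-miR-92a and ssc-miR-363 and -0.44 between ssc-miR-92b-3p and ssc-miR-363. Between ssc-miR-363 and ssc-miR-32 r was 0.46, which placed ssc-miR-363 at rank 14 of 410 for ssc-miR-32 and ssc-miR-32 at rank 65 for ssc-miR-363. These coefficients describe libraries of the same 3 animals that share depth and total composition, and they carry no test.

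A ratio of counts within a library needs no scaling, and it spread widely between these members. ssc-miR-92a had 0.208 to 1.62 counts for each count of ssc-miR-92b-3p, a 7.80-fold range with a median of 0.430. The only ratio above 1 was that of minipig 1 at 17d. Within the minipigs the log2 ratio differed from pre-TBI by -0.26 at Early and -0.57 at Mid on average, and by 0.76 at Late and -0.67 at LR. The value at Late was 2.08 in minipig 1 and -0.57 in minipig 2, and without minipig 1 at C7 and 17d those at Early and Late were 0.02 and -0.57. None of the 16 tests of ssc-miR-92a against the 4 other members in the 4 phases passed, with a smallest adjusted p of 0.635 (two-sided exact permutation tests with the time labels moved within each minipig). At Late and LR the smallest p that these tests can give is 0.111. For each 100 counts of ssc-miR-92a there were 2.13 to 20.8 counts of ssc-miR-363. As the ssc-miR-92a row can hold RNA of both clusters, this is not the proportion of the pair on the second cluster.

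The rows most like each member, by r of log2 CPM over the 24 libraries, also set ssc-miR-92a apart from miR-92b. For ssc-miR-92b-3p the 3 rows outside the family with the highest r were ssc-miR-1249 (0.96), ssc-miR-874 (0.96) and ssc-miR-1343 (0.96). For ssc-miR-92b-5p they were ssc-miR-4332 (0.96), which held the most counts of all rows, ssc-miR-1249 (0.96) and ssc-miR-1307 (0.96). For ssc-miR-92a they were ssc-miR-486 (0.85), ssc-miR-451 (0.69) and ssc-miR-142-5p (0.69). The first pair are miRNAs of red blood cells, and miR-142 is a miRNA of blood cells in general. For ssc-miR-363 they were ssc-miR-148b-5p (0.84), ssc-miR-9854-5p (0.83) and ssc-miR-455-3p (0.79). For ssc-miR-32, whose counts were lowest, they were ssc-miR-217 (0.71), ssc-miR-184 (0.57) and ssc-miR-582 (0.55).

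In minipigs 2 and 3 ssc-miR-92a was high in libraries rich in red cell miRNAs. ssc-miR-486 stood at 77925 CPM in minipig 2 at C7 and 46750 in minipig 3 at 0d, the libraries in which ssc-miR-92a reached 15431 and 13060 CPM. It was 7700 CPM in minipig 3 at C1, where ssc-miR-92a was at 4401. Without the 2 libraries farthest from the median of ssc-miR-486, r with ssc-miR-92a was 0.76. It was 0.91 within the 10 libraries of minipig 2 and 0.58 within the 10 of minipig 1. For ssc-miR-451, r with ssc-miR-92a was 0.81 within minipig 2 and 0.15 within minipig 1, so this likeness was weak within minipig 1. For ssc-miR-144, r was 0.66 over all libraries, 0.81 within minipig 2 and -0.12 within minipig 1. Without the 2 farthest libraries of each, r was 0.52 for ssc-miR-451 and 0.44 for ssc-miR-144. In minipig 1 at C7 ssc-miR-92a was at 9778 CPM, the highest of that animal. ssc-miR-486 was high there too, at 22111 CPM from 450 counts, below only the 28711 of that animal at 3d. The scarcer red cell rows were low there, ssc-miR-451 at 491 CPM from 10 counts and ssc-miR-144 at 49.1 CPM from 1 count.

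**Figure D4:**
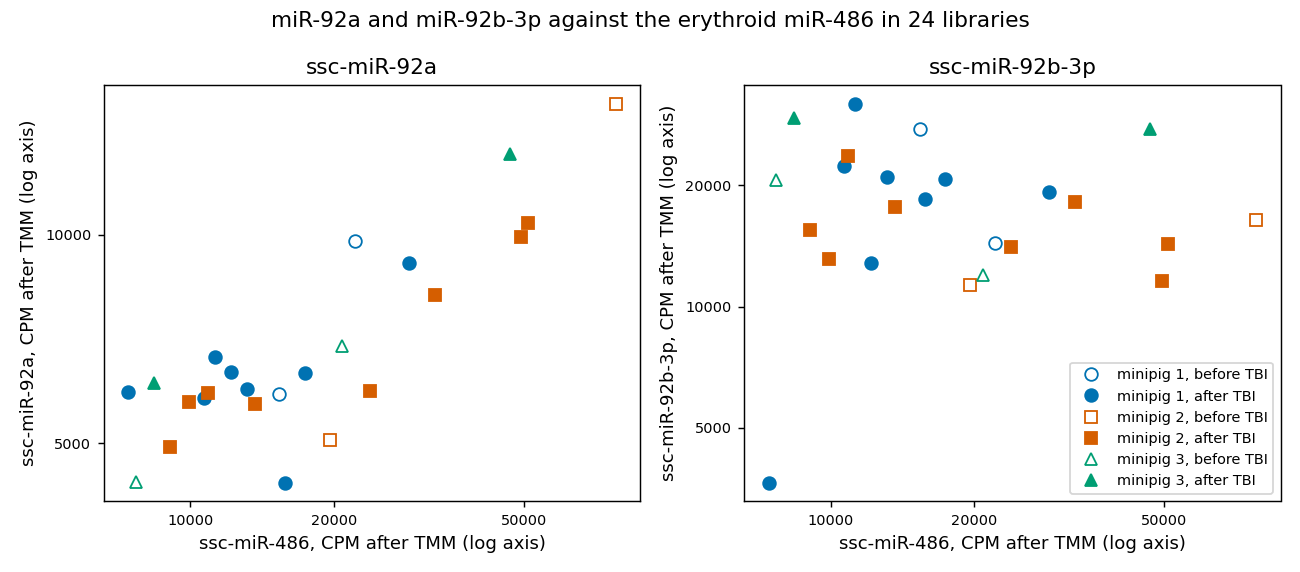
Level of miR-92a (left) and of miR-92b-3p (right) against that of the erythroid miR-486 in the 24 libraries, all as CPM after TMM on log axes, with open markers before TBI and filled markers after it. The libraries with the most miR-486 have the most miR-92a (r = 0.85), and miR-92b-3p shows no such order (r = 0.02).

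The log2 ratio of ssc-miR-451 to ssc-miR-23a, a common index of red cell RNA in plasma, ran from -1.39 to 3.76 over the libraries. Its r with ssc-miR-92a was 0.66 (0.45 without the 2 farthest libraries, 0.83 within minipig 2 and 0.02 within minipig 1) and between -0.07 and 0.14 with the other members. The index was 3.42 in minipig 2 and 2.79 in minipig 3 at C7, and 1.14 and 0.52 at C1, so it was lower at C1 in the same animals as ssc-miR-92a. In minipig 1 it was -1.13 at C7, from 10 counts of ssc-miR-451 and 23 of ssc-miR-23a, and 0.02 at C1. In that animal ssc-miR-92a had the opposite order, and so did ssc-miR-486, at 22111 CPM at C7 and 15369 at C1. The median of the index was 0.83 in the pre-TBI group and 1.09 at Early, and it was -0.86 at Mid, -0.84 at Late and 0.88 at LR. Its part in the values of ssc-miR-92a was not tested.

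Of the 3 red cell rows, ssc-miR-451, ssc-miR-486 and ssc-miR-144, 1 passed the unadjusted threshold at Mid and 1 at Late, both below pre-TBI, and none passed with adjustment. In both phases it was ssc-miR-451, with log2 fold changes of -2.42 (SE 0.89, adjusted p = 0.808) at Mid and -2.74 (SE 1.27, adjusted p = 0.192) at Late by edgeR's quasi-likelihood test. ssc-miR-486 had -0.80 (SE 0.61) and -1.65 (SE 0.84), neither of them past the threshold. The 3 rows together took 1.02 to 9.02% of the pre-TBI counts and 0.827 to 7.06% of those at Early. Their share was 0.909 to 2.93% at Mid, 0.604 to 1.02% at Late and 1.31 to 1.67% at LR. Platelet rows took 0.556 to 7.96% of a library, leukocyte rows 0.140 to 0.576%, liver rows 0.240 to 1.23% and muscle rows 0.130 to 0.559%. At an unadjusted p under 0.05 the 5 platelet rows had 1 call above and 1 below pre-TBI at Early, 1 above at Mid, 1 above and 1 below at Late and 1 above at LR. The 6 leukocyte rows had 1 call below at Mid and 1 above at Late, and the 5 liver rows 1 below at Early and 1 above and 1 below at LR. The 8 muscle rows had 1 above and 2 below at Early, 1 above at Late and 1 below at LR, and no row of these lists passed with adjustment. Of all 411 rows, the same unadjusted rule called 18.7% at Early and 22.6% at Late, against 5.35% at Mid and 5.6% at LR.

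The cluster partners of miR-92a and miR-363 were low in plasma beside ssc-miR-92a. Their 9 rows, for miR-17, miR-18, miR-19, miR-20 and miR-106, took 0.114 to 0.254% of a library together, against 0.429 to 1.58% for ssc-miR-92a alone. In the cluster, miR-17 and miR-20 share a seed that is not that of miR-92, and miR-18 and miR-19 have seeds of their own. At Mid 2 of the 9 rows passed the unadjusted threshold, both below pre-TBI, where 5.35% of all rows were called. They were ssc-miR-17-5p, with a log2 fold change of -0.96 (SE 0.41), and ssc-miR-106a with -0.60 (SE 0.26), both with an adjusted p of 0.808 by edgeR's quasi-likelihood test. None of the 9 was called at Early, Late or LR. The median log2 fold change of the 9 rows was -0.07, -0.15, 0.14 and 0.02 over the 4 phases. With ssc-miR-92a, r over the 24 libraries was 0.46 for ssc-miR-17-5p, 0.45 for ssc-miR-19b and 0.42 for ssc-miR-106a, and ssc-miR-20b had 0.11 with ssc-miR-92a and 0.81 with ssc-miR-92b-3p.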

How the data were processed

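Plasma small RNA was sequenced from 3 minipigs at 10 time points (30 libraries). Libraries were made with a TruSeq small RNA kit and read on a NextSeq. According to the study's methods, reads were trimmed (Cutadapt) and mapped to ssc5 (Bowtie, 2.2.3.0 in the submitters' notes), then matched to the miRNAs of miRBase and quantified with miRDeep2. The values the authors deposited are raw counts per ssc-miRNA, without normalization. How reads that match several miRNAs were counted is not given in the sources used here.

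Members and lists were chosen with earlier results of these data known. The text names every member, related rows from lists of cluster partners and blood, liver and muscle miRNAs, and the 3 rows most alike to each member, and rows of 3 counts or fewer in a group got no fold change. Libraries under 1000 counts were left out. Groups came from the sample labels, and the same number of a minipig marks the same animal, so libraries are paired by design. Deviations from the phase means correlated by 0.169 on average within a minipig (78 pairs) and -0.102 between minipigs (130 pairs), and no libraries of a phase were duplicates (chi-square per degree of freedom at least 21.8).

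edgeR 4.0.16 in R 4.3.3 fitted 5 groups without an animal term, with TMM and a filter of CPM above 0.5 in 3 libraries, which all 411 rows passed. The SE is the log2 fold change over the square root of F, and intervals use a t quantile with 23.2 degrees of freedom. Levels are CPM, or log2 CPM with a prior count of 2, and ratios have a pseudocount of 1. P-values measure the spread between libraries, which share animals. Alternatives were other scalings, filters, tests (DESeq2 1.42.0), baselines, depths, a replicate block and leaving out each minipig. The fits were tested on simulated counts, drawn independently for each library and without animal effects. Such counts do not cover the sharing of animals between libraries. Ratios and correlations used Python 3.11.15, scipy 1.17.1, numpy 2.4.6, pandas 2.3.3 and matplotlib 3.10.9. Totals per library of 24341 to 550316 counts limit the precision of the scarcer members.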

Additional observations from a re-analysis of the deposited data

Results flagged for a closer look

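At Late (17d) the difference of ssc-miR-363 from the same animal's pre-TBI libraries had opposite signs in the minipigs measured. Log2 CPM was different by 1.25 in minipig 1 and by -1.36 in minipig 2, with the library of minipig 1 above both of its own pre-TBI libraries and that of minipig 2 below both of its own. The difference between the animals was not tested, and each value rests on 1 library, with 19 and 14 counts of ssc-miR-363. ssc-miR-32 was left out of this comparison in minipig 1, where its pre-TBI libraries held 0 and 1 counts. By Dixon's limit no library stood apart in the 27 groups looked at, which were the 5 members and the 4 ratios of ssc-miR-92a to the others in pre-TBI, Early and Mid. Late and LR, with 2 libraries each, cannot be looked at in this way.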

How the results depend on the processing

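No member passed an adjusted p under 0.05 in any phase under the alternatives run that kept more than 1 library in the phase. With each minipig left out in turn, 0 to 1 members passed an unadjusted p under 0.05 at Early and 0 to 2 between the minipigs. Over all 411 rows, 35 to 78 passed at Early in these fits. Between the minipigs the main fit called 29.4% of all rows without adjustment. That share is not given for the alternatives, so the members called there cannot be set against it. Late, LR and each time point from 3d on held 1 library without minipig 1 or 2, so no calls are given for them. At Late the unadjusted threshold was passed by 2 members with library size scaling without TMM, where 81 of all 411 rows passed. It was passed by 2 with the DESeq2 test (101 rows) and 1 with edgeR's likelihood ratio test (99 rows). With C7 only as the baseline 1 passed (38 rows), and with C1 only 2 (109 rows). With counts thinned to 24341 a library 1 passed (70 rows), and without the most counted row 2 (83 rows). The main fit called 93 rows at Late. With C1 only, 1 was called at Early (47 rows), and with C7 only, 1 at Mid (17 rows) and 1 at LR (32 rows). Without libraries under 50000 counts, 1 was called at LR (48 rows) and 1 between the minipigs. Without minipig 1 at C7 and 17d, an alternative chosen after seeing the data, 1 was called between the minipigs. With a replicate block for the minipig in the fit, which pairs libraries by animal, edgeR called 0 members in every phase and gave ssc-miR-363 at Late -0.049. The ratio tests, blocked by minipig, passed 0 times with no replicate block too.

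Some log2 fold changes turned in sign, and the cause was not tested. For ssc-miR-363 at Late the value was -0.42 with library size only, -0.10 with DESeq2 size factors, -0.18 with the DESeq2 test, -0.041 with the likelihood ratio test, -0.20 with C7 only, -0.12 with only the 2 groups fitted, -0.22 thinned, -1.25 without libraries under 50000 counts, -0.21 without the most counted row and -1.25 without minipig 1 at C7 and 17d. For ssc-miR-92a at Early it was -0.017 with library size only, -0.44 with C7 only, -0.093 thinned and -0.024 without the most counted row. With C1 only, ssc-miR-92a had 0.14 at Mid, 0.19 at Late and 0.14 at LR, ssc-miR-92b-3p -0.20 at Mid and -0.13 at LR, and ssc-miR-92b-5p -0.17 and -0.015. Thinned, ssc-miR-92b-3p had -0.018 at Mid and -0.066 at LR, and ssc-miR-92b-5p -0.0035 at LR. Without minipig 1 at C7 and 17d, ssc-miR-92b-3p had -0.045 at Mid and -0.092 at LR, and ssc-miR-92b-5p -0.023 and -0.0013. Without libraries under 50000 counts, these LR values were -0.092 and -0.0013, and ssc-miR-363 at Mid was -0.26. Without the most counted row ssc-miR-92b-3p at LR was -0.032.

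Leaving out 1 minipig at a time, the values ran from -1.44 to 0.61 for ssc-miR-363 at Late and -0.23 to 0.58 at Mid, -0.23 to 0.16 for ssc-miR-92a at Early, -0.20 to 0.27 for ssc-miR-92b-3p at Mid, -0.14 to 0.29 for ssc-miR-92b-5p at Mid and -0.053 to 0.28 at LR, and -0.43 to 0.18 for ssc-miR-32 at Mid and -0.33 to 0.038 at LR. The log2 ratio of ssc-miR-92a to ssc-miR-92b-3p was 0.44 at Early, 0.11 at Mid and 0.014 at LR with C1 only, 0.019 at Early and -0.57 at Late without libraries under 50000 counts and also without minipig 1 at C7 and 17d, and -0.57 to 2.08 at Late leaving out 1 minipig at a time. Neither filter changed a value, since every row passed them. Late and LR rest on 1 library per animal, and ssc-miR-32 on few counts, with -1.95 at Mid when thinned.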
